A study of Mus musculus with 23 samples.

Results

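The genes described are the translation initiation factors of mouse oocytes and early embryos. They were chosen as the rows of the expression table whose symbol begins with Eif and a digit from 1 to 6, except Eif4e1b and Eif4enif1, which gave 53 of 24506 rows. RNA sequencing libraries, 23 in 8 groups, had been made from oocytes at the germinal vesicle (GV) stage, from zygotes and from 2-cell embryos to compare the wild type with loss of Cxxc1, the gene for the CpG-binding protein CFP1 of the SETD1 histone H3 lysine 4 methyltransferases. Wild-type GV oocytes came from females of 3 weeks and from females of 3 months. Deletion GV oocytes came from 3-week Cxxc1fl/fl;Zp3-Cre females and from 3-month Cxxc1fl/fl;Gdf9-Cre females. Zygotes and 2-cell embryos had either a wild-type mother or a Cxxc1fl/fl;Zp3-Cre mother, and every father was wild type, so the deletion in embryos is that of the mother. The age of the mothers is not given in the sources used here. Both Cre drivers act in the oocyte, Gdf9-Cre from an earlier follicle stage than Zp3-Cre, and Cre line and age differ together between both pairs of GV groups and cannot be told apart. There were 2 libraries of wild-type 2-cell embryos and 3 of every other group. The labels do not tie them to separate animals, and p-values here cover no more than the scatter among libraries, which may be technical.

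Translation initiation brings the small ribosomal subunit to the start codon of an mRNA. Factor eIF2 carries the initiator tRNA, eIF2B recharges eIF2 with GTP, and kinases that phosphorylate eIF2 slow the whole process. The large eIF3 complex bridges the small subunit and the eIF4 factors, which bind the cap, unwind the leader and form a scaffold, while eIF4E-binding proteins hold the cap-binding protein back. Oocytes and early embryos control their proteins largely at this step, because transcription is silent from the fully grown oocyte until the embryo starts its own, which in the mouse happens mostly in 2-cell embryos.

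The promoters of 3 members are shown first, because CFP1 binds unmethylated CpG dinucleotides and these members showed 3 of the patterns below. Their patterns were known when they were picked. Eif4a2 was lower in all 4 deletion comparisons and Eif2ak1 was higher in all 4. Eif2ak3 was higher in deletion zygotes, though not called under every scaling, and lower in deletion 2-cell embryos. Each window runs from 250 bases before to 50 bases after the annotated start, is taken from RefSeq on build GRCm38.p6, lies on the plus strand and is written with every CG in capitals. The windows are chr16:23107218-23107517 for Eif4a2 with 36 CG, chr5:143817542-143817841 for Eif2ak1 with 15 CG and chr6:70844265-70844564 for Eif2ak3 with 17 CG.
Eif4a2: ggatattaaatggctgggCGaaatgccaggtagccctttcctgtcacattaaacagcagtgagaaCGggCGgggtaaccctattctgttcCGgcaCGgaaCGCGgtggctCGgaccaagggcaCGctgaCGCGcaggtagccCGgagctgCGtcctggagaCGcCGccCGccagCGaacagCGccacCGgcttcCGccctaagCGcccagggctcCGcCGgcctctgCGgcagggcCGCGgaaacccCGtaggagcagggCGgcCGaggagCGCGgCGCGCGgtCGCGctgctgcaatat
Eif2ak1: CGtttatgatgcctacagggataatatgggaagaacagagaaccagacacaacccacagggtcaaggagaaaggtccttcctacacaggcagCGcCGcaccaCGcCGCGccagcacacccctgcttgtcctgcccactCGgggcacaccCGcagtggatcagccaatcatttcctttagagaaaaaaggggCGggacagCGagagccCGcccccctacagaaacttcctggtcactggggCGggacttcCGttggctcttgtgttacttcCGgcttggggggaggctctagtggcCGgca
Eif2ak3: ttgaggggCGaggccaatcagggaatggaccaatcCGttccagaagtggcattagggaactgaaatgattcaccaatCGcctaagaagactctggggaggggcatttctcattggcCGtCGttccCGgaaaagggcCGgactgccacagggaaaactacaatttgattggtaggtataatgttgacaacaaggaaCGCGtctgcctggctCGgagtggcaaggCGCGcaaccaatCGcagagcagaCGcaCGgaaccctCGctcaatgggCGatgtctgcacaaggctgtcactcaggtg
A promoter entry was matched for 42 of the 53 members, in 52 windows of 300 bases, some genes having more than 1. These windows held a median of 23.5 CG (range 9 to 50), against a median of 7 over all 32851 mouse promoter windows of the same length. At least 10 CG were present in 98.1% of the members' windows and in 43.5% of all windows. The reference holds 27025 genes and was not limited to those expressed here. Whether the contrast is particular to the members was not tested. CG reads the same on both strands, so a window has 1 count, and a match describes the letters and not binding.

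Cxxc1 itself was at 24.0 to 41.5 FPKM (fragments scaled to transcript length and library size) in wild-type GV oocytes and zygotes and at 0.698 to 1.61 in the deletion groups of those stages, and at 9.94 to 11.04 against 0.626 to 4.16 in 2-cell embryos. Read counts were not used, and relative depth, judged from the steps of the lowest values, ran from 0.509 to 1.49 times that of wild-type 3-week library 1. All 12 oocyte markers were present at a group mean of at least 1 FPKM in every group but wild-type 2-cell embryos, where 11 were. Deletion 2-cell library 3 stood apart, and results on deletion 2-cell embryos are also given without it. Cxxc1 was at 4.16 FPKM in library 3, against 1.17 and 0.626 in deletion 2-cell libraries 1 and 2. Blood and immune markers summed to 30.6, against 4.31 and 0.179. Its log2(FPKM + 1) values correlated with theirs at 0.942 and 0.936, while theirs correlated at 0.983. The 19 granulosa and cumulus cell markers summed to 258 FPKM in it, and to as low as 27.8 in that group. Of that list Amh, Fshr, Cyp19a1 and Nr5a2 were lower in library 3 than in both others, Ptx3 was at 0, and the rest were higher. The same list summed to 125 to 223 FPKM in Gdf9-Cre oocytes and to 44.1 to 48.1 in their wild-type controls, and its part in the results of that comparison was not tested. Bulk FPKM is relative to the library, so fewer cells of a type and less RNA per cell cannot be told apart.

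The 53 members together made up 0.947 to 0.964% of the summed FPKM in wild-type 3-week oocytes, 0.749 to 0.760% in wild-type zygotes and 1.04 to 1.08% in wild-type 2-cell embryos. In wild-type 3-week oocytes the highest members were the scanning factor Eif1ax with 259, 276 and 284 FPKM, the eIF5A gene Eif5a with 262, 248 and 246 and the start-codon factor Eif1b with 255, 253 and 244. These library values overlap, so the order of these 3 is not resolved. Of the 53 members, 51 were at 1 FPKM or more in 2 or more libraries and were tested, among 13776 genes. The others were Eif2ak2, the double-stranded RNA-activated kinase PKR, which stayed at or below 2.11 FPKM, and Eif2s3y, the Y-linked copy of the eIF2 gamma subunit. Eif2s3y was at 0.905 and 1.75 FPKM in wild-type 2-cell embryos and at 0.109, 0 and 0 in deletion 2-cell embryos, and was listed at 0 in all oocyte libraries.

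**Figure D1:**
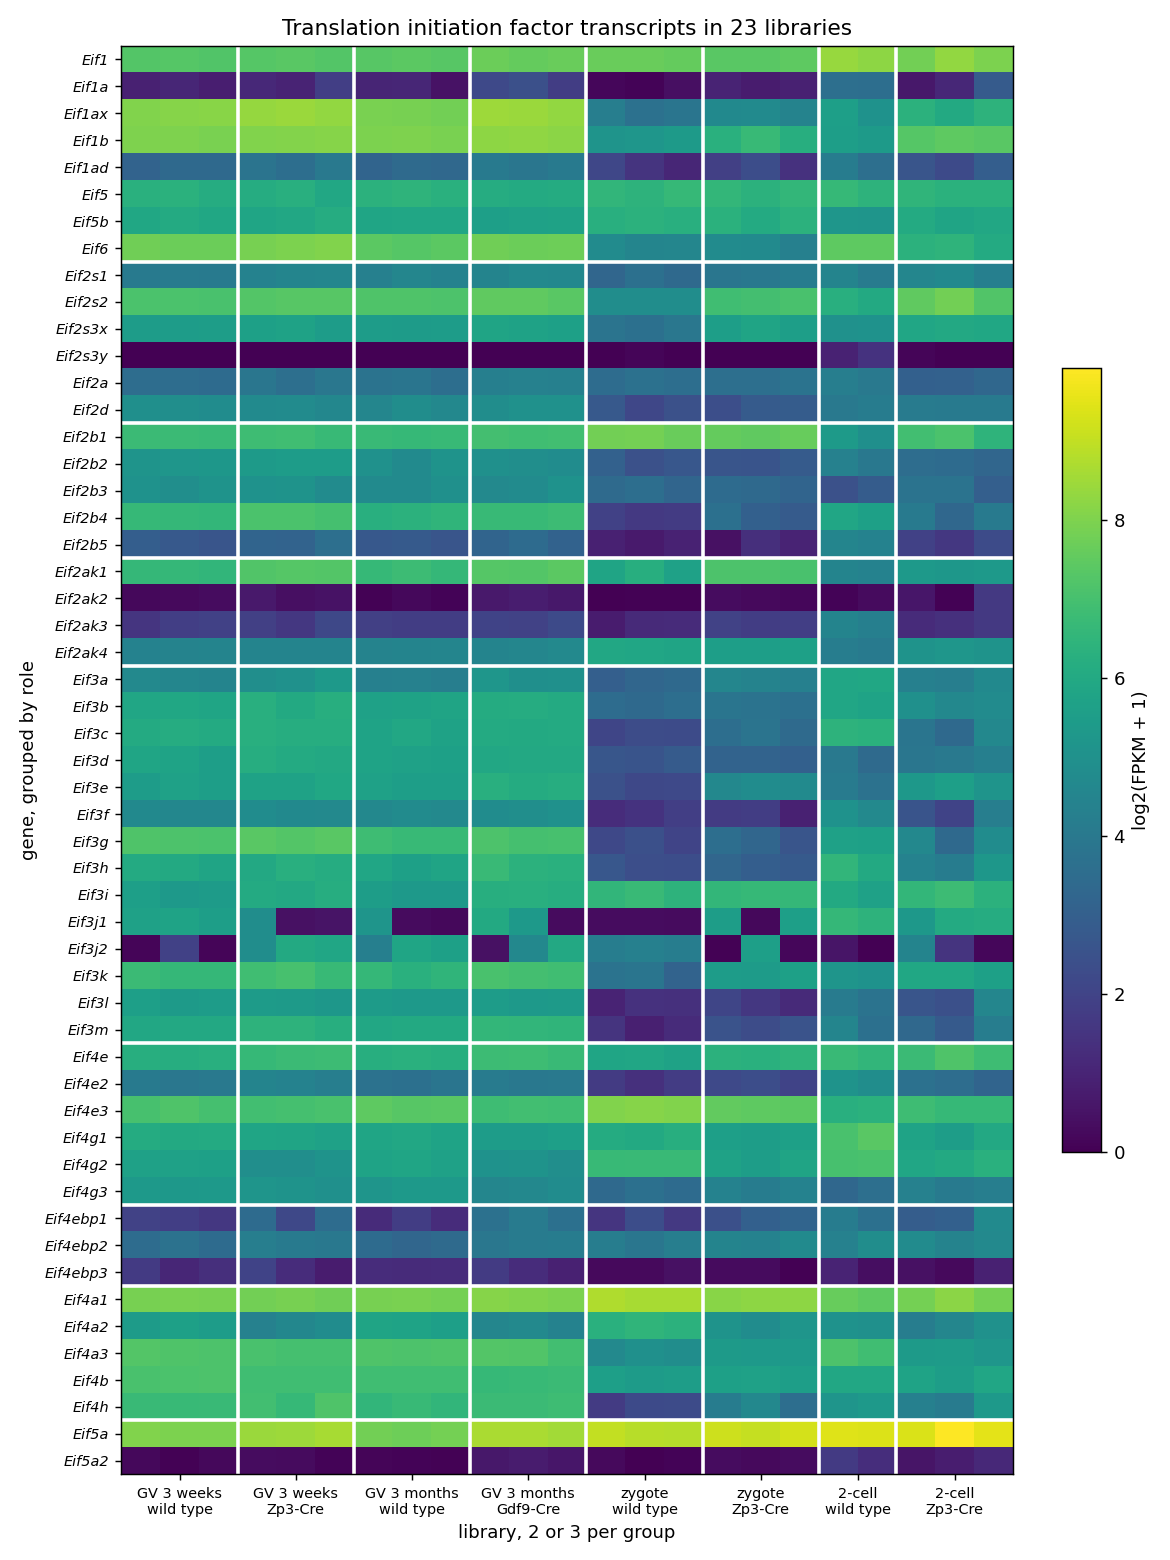
Heat map of log2(FPKM + 1) for the 53 initiation factor genes (rows, ordered by role) in the 23 libraries (columns, ordered by group). Most eIF3 rows are high in GV oocytes, low in zygotes and intermediate or high in 2-cell embryos, and the rows of Eif3j1 and Eif3j2 switch between libraries of the same group.

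With Cxxc1 deleted, initiation factors were higher and lower, in numbers that varied by stage. Values were compared as log2(FPKM + 1) with limma, and called means an adjusted p under 0.05 (Benjamini-Hochberg, over all genes tested), every error beside a fold change being a standard error. In 3-week Zp3-Cre oocytes 14 of the 51 members were higher and 4 lower, that is 27.5% and 7.84%, against 18.3% and 11.3% of all genes. In 3-month Gdf9-Cre oocytes 22 were higher and 7 lower (43.1% and 13.7%, against 34.2% and 15.2% of all genes). In zygotes 24 were higher and 6 lower (47.1% and 11.8%, against 35.3% and 11.4%). In 2-cell embryos 17 were higher and 24 lower (33.3% and 47.1%, against 37.1% and 29.4%). The median log2 fold change of the members was 0.20, 0.28, 0.36 and -0.30 in that order, and that of all genes 0.09, 0.20, 0.22 and 0.16. Without deletion 2-cell library 3, 17 members were higher and 26 lower in 2-cell embryos, 40 of the 43 being among the 41 called with it, and 68.8% of all genes were called. Counts out of the 51, here and below, include the near-identical Eif3j1 and Eif3j2, whose single values are uncertain. Eif3j2 is among the 14 higher in 3-week oocytes.

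The split depended on how libraries were scaled to each other. Median-of-ratios scaling left 8 higher and 5 lower members in 3-week oocytes, 11 and 8 in 3-month oocytes, 12 and 18 in zygotes, and 12 and 26 in 2-cell embryos. Quantile normalization gave 10 and 6, 12 and 8, 14 and 10, and 14 and 25. Among all called genes the share called higher, in the same order, was 61.8%, 69.2%, 75.6% and 55.8% without these scalings. It was 45.4%, 48.3%, 41.1% and 46% under median-of-ratios scaling, where 61.5%, 57.9%, 40% and 31.6% of the called members were higher. Under quantile normalization it was 48.2%, 46.6%, 44.6% and 56.1%, and 62.5%, 60%, 58.3% and 35.9% for the called members. With these scalings the all-gene median of the deletion comparison moved by -0.25 and -0.29 in zygotes and by -0.17 and -0.22 in 3-month oocytes. Members with small rises in zygotes, Eif3b, Eif3d, Eif4e, Eif4ebp2 and Eif4a3, changed sign under the first scaling, and Eif3b, Eif3d and Eif4ebp2 also under the second. Below, a second log2 fold change stands beside the first, with its scaling named, where that scaling ended the call or moved the value by more than 1.5 times. The 3-week counts were also sensitive to single libraries, since 10 members were called without wild-type library 3 and 11 without wild-type library 2 or deletion library 1.

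**Figure D2:**
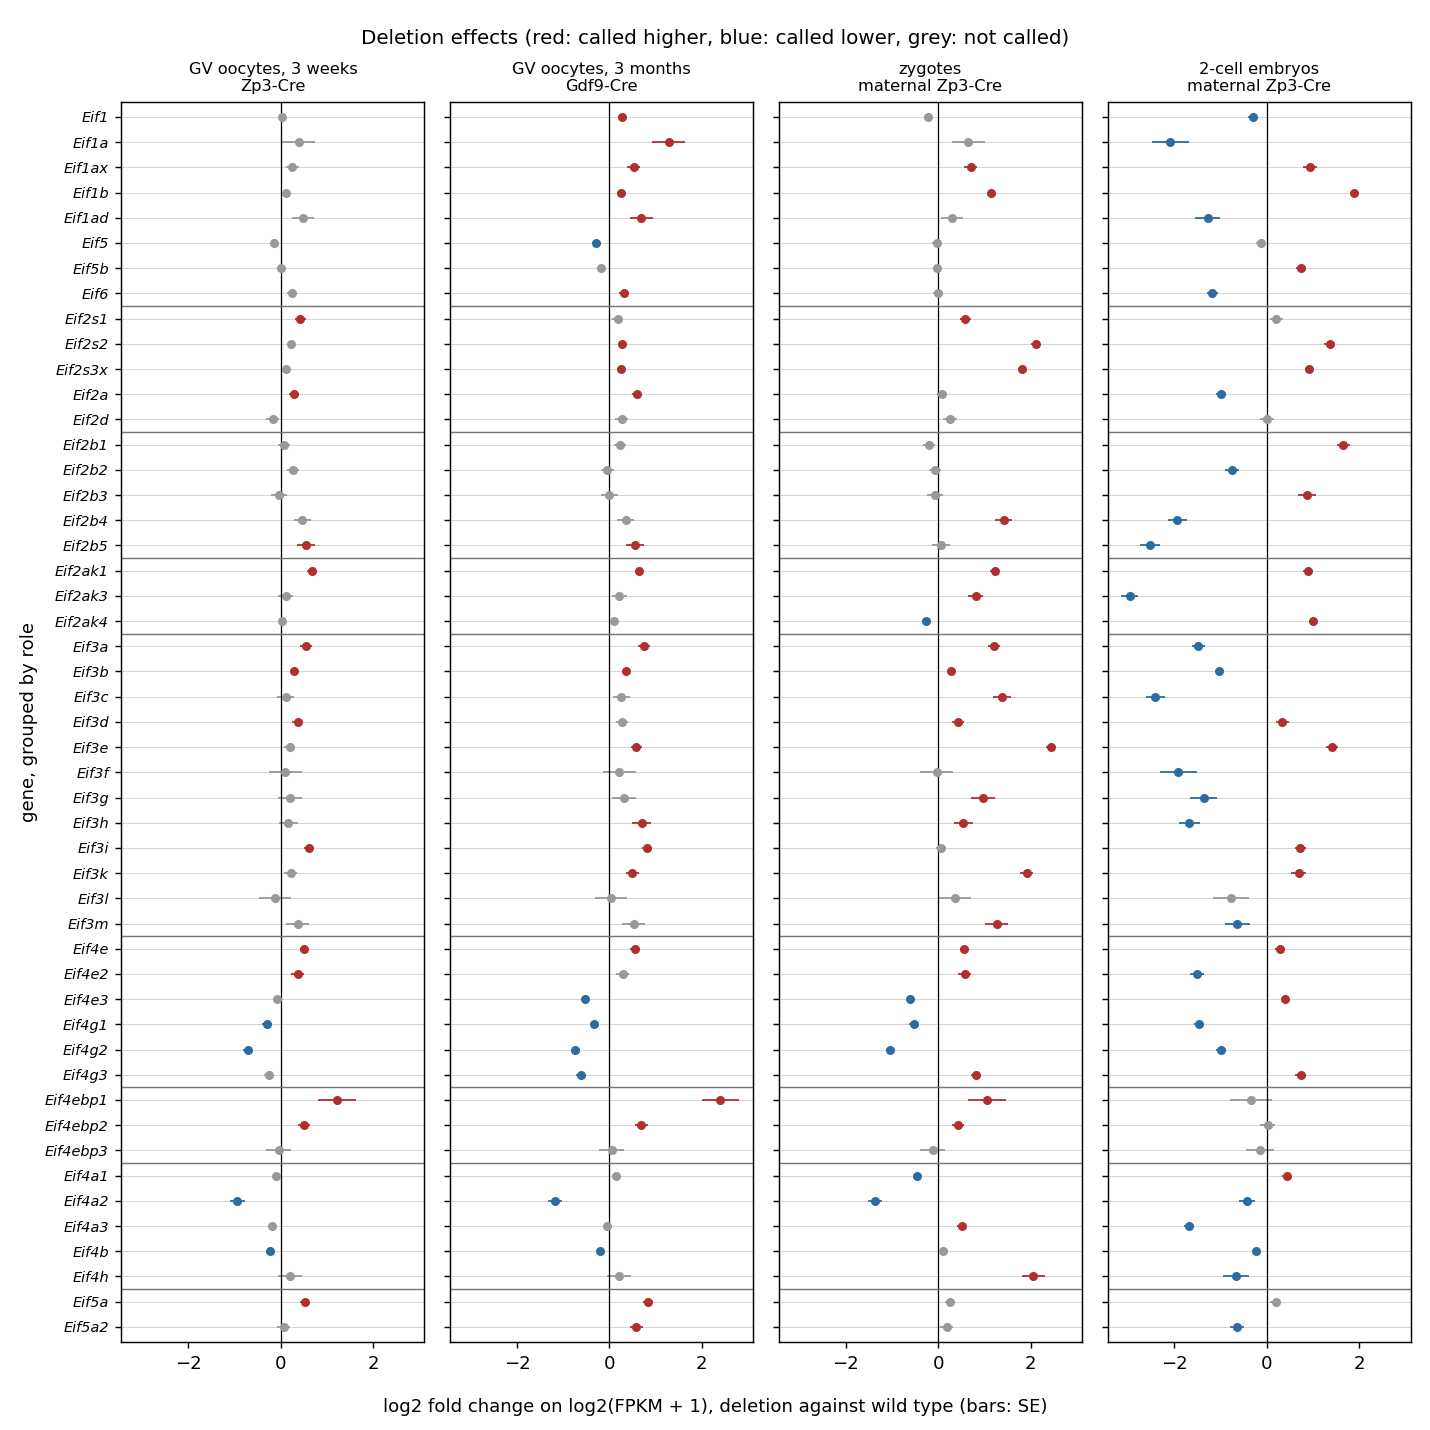
Deletion minus wild-type difference in log2(FPKM + 1) with its standard error for 49 members (Eif3j1 and Eif3j2 left out), in 3-week GV oocytes, 3-month GV oocytes, zygotes and 2-cell embryos. Points in red were called higher, those in blue called lower, and those in grey were not called. Points lie mostly right of 0 in oocytes and zygotes and on both sides, more often left, in 2-cell embryos.

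Of the 8 tested members grouped under start-codon selection and subunit joining, none passed the test in 3-week oocytes. In 3-month oocytes 6 were higher and 1 lower, in zygotes 2 were higher, and in 2-cell embryos 3 were higher and 4 lower. The group holds Eif1ad, whose part in these steps is not shown here. Eif1ad was among the 6 and among the 4. Median-of-ratios scaling turned these counts to 1 higher and 2 lower in 3-month oocytes and 1 and 4 in zygotes, and quantile normalization to 2 and 2, and 1 and 2. Without these scalings, 18.3%, 34.2%, 35.3% and 37.1% of all genes were higher in the 4 comparisons, and 11.3%, 15.2%, 11.4% and 29.4% lower. Eif1b, a paralogue of the start-codon stringency factor Eif1, was at 34.2, 36.2 and 41 FPKM in wild-type zygotes and 77.5, 101 and 74.1 in deletion zygotes (log2 fold change 1.15 ± 0.0921, adjusted p = 3.20e-09, or 0.55 with median-of-ratios scaling). In 2-cell embryos it was at 46.7 and 41.7 in the wild type and 158, 176 and 166 after deletion (log2 fold change 1.89 ± 0.103, adjusted p = 7.16e-12, or 1.9 without library 3). All deletion embryos lay above all wild-type embryos of their stage. Eif6, which keeps the large subunit from joining too early, did the reverse in 2-cell embryos, at 177 and 177 FPKM in the wild type and 81.5, 86.1 and 66.1 after deletion (log2 fold change -1.18 ± 0.121, adjusted p = 5.27e-08, or -1.07 without library 3).

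Eif1ax and Eif1a encode nearly the same scanning factor, so their reads may have been split and the single values are uncertain. Eif1ax stood at 259, 276 and 284 FPKM in the wild-type and 320.5, 338 and 314 in Zp3-Cre 3-week oocytes, which missed the test (log2 fold change 0.25 ± 0.141, adjusted p = 0.208). Its 3-month levels were 244, 233 and 224 in the wild type and, with Gdf9-Cre, 353, 343 and 318 (log2 fold change 0.53 ± 0.141, adjusted p = 0.00413, not called at 0.29 with median-of-ratios scaling). It was much lower in zygotes, with 17.8, 12 and 13.6 in the wild type and 25.4, 26 and 20.7 after deletion (log2 fold change 0.71 ± 0.141, adjusted p = 3.20e-04, not called at 0.13 with median-of-ratios scaling and 0.21 with quantile normalization). The 2-cell values were 48.1 and 32 in the wild type and 81.6, 63.9 and 84.5 after deletion (log2 fold change 0.94 ± 0.158, adjusted p = 2.89e-05, or 0.86 without library 3). The deletion libraries were above all wild-type libraries at each of the 4 comparisons. Eif1a was the smaller source of RNA throughout. It read 0.901, 1.08 and 0.761 FPKM in the wild-type and 1.19, 0.985 and 2.6 in Zp3-Cre 3-week oocytes (log2 fold change 0.39 ± 0.365, adjusted p = 0.47), which overlap. The 3-month values were 1.03, 1.1 and 0.389 in the wild type and 3.56, 4.31 and 2.51 with Gdf9-Cre (log2 fold change 1.28 ± 0.365, adjusted p = 0.00682, not called at 0.82 with quantile normalization), with no overlap. Zygotes held 0.138, 0.0647 and 0.312 in the wild type and 0.962, 0.687 and 0.876 after deletion, all below 1 FPKM. Wild-type 2-cell embryos reached 11.4 and 11.1, and deletion embryos 0.575, 1.16 and 6.13 (log2 fold change -2.08 ± 0.408, adjusted p = 1.56e-04). Library 3 had the highest value of the deletion embryos, and the fold change without it was -2.73.

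The eIF2 subunits were higher in deletion zygotes, and most so the beta and X-linked gamma subunits. Eif2s2, the beta subunit, was at 27.7, 27.9 and 28 FPKM in wild-type zygotes and at 116, 123 and 132 in deletion zygotes (log2 fold change 2.11 ± 0.099, adjusted p = 1.36e-12). Eif2s3x, the gamma subunit that binds the initiator tRNA, was at 12.9, 11.7 and 14.2 in the wild type and 45.7, 53.9 and 45.6 after deletion (log2 fold change 1.82 ± 0.0833, adjusted p = 9.42e-13). Both sets of libraries lay far apart. Eif2s1, the alpha subunit that the stress kinases phosphorylate, differed by 0.59 ± 0.12 (adjusted p = 4.03e-04), and was not called under median-of-ratios scaling (0.029) or quantile normalization (0.088).

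In 2-cell embryos Eif2s2 was at 76.2 and 64.5 in the wild type and 179, 221 and 150.2 after deletion (log2 fold change 1.36 ± 0.111, adjusted p = 1.89e-09, or 1.49 without library 3). Eif2s3x was at 31.1 and 31.9 in the wild type and 58.1, 62.5 and 59.5 after deletion (log2 fold change 0.91 ± 0.0931, adjusted p = 4.88e-08, or 0.92 without library 3). The deletion embryos were again all higher. In oocytes the effects on Eif2s3x were small, from 43.5, 43.6 and 44.8 to 48.6, 51.9 and 43.8 FPKM at 3 weeks (log2 fold change 0.12 ± 0.0833, adjusted p = 0.292). At 3 months they went from 43.1, 42.9 and 43.4 to 55, 51 and 48.5 (log2 fold change 0.25 ± 0.0833, adjusted p = 0.0183, not called at 0.0069 with median-of-ratios scaling and 0.081 with quantile normalization). That call was also lost without Gdf9-Cre library 1 (0.20). Of the factors that deliver tRNA outside the usual route, Eif2a was higher in 3-week (0.29, not called at 0.19 with median-of-ratios scaling and 0.23 with quantile normalization) and 3-month deletion oocytes (0.59, or 0.35 with median-of-ratios scaling) and lower in deletion 2-cell embryos (-0.99, adjusted p = 3.89e-07, or -1.07 without library 3), and Eif2d passed the test in none of the 4 deletion comparisons.

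The exchange factor eIF2B has 5 subunits, and these did not move as a unit in deletion 2-cell embryos. There Eif2b1 and Eif2b3 were higher and Eif2b2, Eif2b4 and Eif2b5 lower, where 37.1% of all genes were higher and 29.4% lower. The alpha subunit gene Eif2b1 was at 41.2 and 29.4 FPKM in the wild type and at 120.4, 136 and 85.7 after deletion (log2 fold change 1.66 ± 0.143, adjusted p = 4.16e-09, or 1.85 without library 3). The catalytic epsilon subunit gene Eif2b5 was at 21.9 and 20.04 in the wild type and 2.76, 2.02 and 3.84 after deletion (log2 fold change -2.53 ± 0.222, adjusted p = 5.33e-09, or -2.71 without library 3). The delta subunit gene Eif2b4 was at 57.5 and 49.2 in the wild type and 15.6, 8.98 and 16 after deletion (log2 fold change -1.94 ± 0.203, adjusted p = 6.44e-08, or -2.07 without library 3). The groups did not overlap for any of these 3. In zygotes Eif2b4 had differed the other way, at 2.74, 2.15 and 2.31 in the wild type and 11.7, 7.17 and 6.16 after deletion (log2 fold change 1.42 ± 0.181, adjusted p = 1.89e-06, or 0.85 with quantile normalization), and no other eIF2B subunit passed the test there. Of all genes 35.3% were higher and 11.4% lower in zygotes. Median-of-ratios scaling called 3 of the 5 subunits lower there, and 4020 of the 13776 genes tested. In 3-week oocytes Eif2b5 was called higher (6.84, 5.75 and 5.13 FPKM against 8.13, 7.96 and 11.3, log2 fold change 0.54 ± 0.198, adjusted p = 0.0451). That call was lost when wild-type library 2 or 3 or deletion library 1 or 3 was left out, with log2 fold changes of 0.53, 0.46, 0.61 and 0.40 in that order, under both other scalings, with a pseudocount of 0.1, without the filter on low values and with the replicate block.

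The kinases of eIF2 each answer another stress and showed 3 separate patterns. Eif2ak1, the haem-regulated kinase HRI, was the most abundant in GV oocytes, at 95, 97 and 91.6 FPKM in the wild type and 149, 156 and 151 with Zp3-Cre at 3 weeks (log2 fold change 0.68 ± 0.1, adjusted p = 4.84e-05). At 3 months it was at 99.6, 109 and 95.7 in the wild type and, with Gdf9-Cre, at 155, 154 and 169.9 (log2 fold change 0.65 ± 0.1, adjusted p = 3.11e-05, or 0.4 with median-of-ratios scaling). Zygotes had 54.3, 73.5 and 50.1 in the wild type and, after deletion, 140.0, 142 and 132 (log2 fold change 1.22 ± 0.1, adjusted p = 4.36e-09, or 0.63 with median-of-ratios scaling). In 2-cell embryos the values were 21.1 and 19.97 in the wild type and 40.5, 36.6 and 39.7 after deletion (log2 fold change 0.89 ± 0.112, adjusted p = 8.17e-07, or 0.88 without library 3). Every deletion library was above every wild-type library of its comparison, and 15 CG stand in the promoter window printed above.

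Eif2ak3, the endoplasmic reticulum stress kinase PERK, was low in oocytes, at 1.91, 2.54 and 2.81 FPKM in the wild type and 2.63, 2.02 and 3.46 with Zp3-Cre (log2 fold change 0.11 ± 0.162, adjusted p = 0.681). At 3 months the values were 2.72, 2.52 and 2.44 in the wild type and 2.93, 2.83 and 3.65 with Gdf9-Cre (log2 fold change 0.21 ± 0.162, adjusted p = 0.297). Neither comparison passed the test. In zygotes it was at 0.689, 1.29 and 1.32 in the wild type and, after deletion, 2.9, 2.47 and 2.62 (log2 fold change 0.82 ± 0.162, adjusted p = 3.18e-04, not called at 0.41 with quantile normalization, and 0.48 with median-of-ratios scaling). Wild-type 2-cell embryos held 21.5 and 18.2 and deletion embryos 1.35, 1.58 and 2.11 (log2 fold change -2.96 ± 0.182, adjusted p = 3.50e-11, or -3.08 without library 3). It had the largest fall of any called member in 2-cell embryos. The deletion 2-cell libraries lay below all deletion zygotes.

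Eif2ak4, the amino acid sensor GCN2, passed no test in oocytes, with 19.9, 20.7 and 21.3 in the wild type and 21.1, 21.3 and 21.1 with Zp3-Cre at 3 weeks (log2 fold change 0.036 ± 0.0672, adjusted p = 0.748). At 3 months it read 20.6, 21.1 and 21.6 in the wild type and 21.5, 22.7 and 24.1 with Gdf9-Cre (log2 fold change 0.1 ± 0.0672, adjusted p = 0.224). Deletion zygotes were lower, 46.1, 46.3 and 49 against 60.5, 56.7 and 54 (log2 fold change -0.27 ± 0.0672, adjusted p = 0.00244, or -0.87 with median-of-ratios scaling and -0.42 with quantile normalization), and deletion 2-cell embryos higher, 33, 35.5 and 33.5 against 17.2 and 16 (log2 fold change 0.99 ± 0.0751, adjusted p = 6.75e-10, or 1.0 without library 3). In 2-cell embryos PERK and GCN2 RNA thus differed in opposite directions between the genotypes. Eif2ak2 was too low to be tested. At 3 weeks it read 0.156, 0.191 and 0.247 in the wild type and 0.595, 0.319 and 0.383 with Zp3-Cre. At 3 months it read 0.0389, 0.15 and 0.0839 in the wild type and 0.619, 0.737 and 0.576 with Gdf9-Cre. Embryos were in the same low range, with 0, 0.042 and 0.0405 in wild-type and 0.26, 0.184 and 0.114 in deletion zygotes, and 0.0574 and 0.233 in wild-type and 0.498, 0.0443 and 2.11 in deletion 2-cell embryos, where library 3 held the highest value of all.

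The eIF3 complex has a scaffold of PCI and MPN domain subunits (a, c, e, f, h, k, l and m), a module of b, g and i, and the cap-contacting subunit d, with the loosely bound j as an accessory. Leaving out the copies Eif3j1 and Eif3j2, 4 of the 12 subunits were higher in 3-week and 6 in 3-month deletion oocytes, 9 were higher in deletion zygotes, and none was lower. Of all genes 18.3%, 34.2% and 35.3% were higher in these comparisons, in that order. The oocyte counts were 2 and 3 under median-of-ratios scaling and 2 and 4 under quantile normalization. The zygote count was 5 higher and 2 lower under median-of-ratios scaling and 5 higher under quantile normalization. In 2-cell embryos 37.1% of all genes were higher and 29.4% lower. There 4 subunits (d, e, i and k) were higher and 7 (a, b, c, f, g, h and m) lower. Subunit l did not pass the test. Without deletion 2-cell library 3 these counts were 3 and 8, and the other scalings gave 2 and 8, and 4 and 6. The 12 thus split within both the scaffold and the b, g and i module.

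Eif3e, a scaffold subunit, had the largest rise of any called member in zygotes. It was at 4.55, 3.5 and 3.62 FPKM in the wild-type and 23.5, 27 and 25.9 in deletion zygotes (log2 fold change 2.44 ± 0.117, adjusted p = 1.85e-12), with no library near the other group. In 2-cell embryos Eif3e was at 16.3 and 12.3 in the wild type and 38.1, 46.9 and 34 after deletion (log2 fold change 1.41 ± 0.131, adjusted p = 1.20e-08, or 1.51 without library 3). Eif3k, another scaffold subunit, was at 12.8, 13.5 and 7.99 in wild-type zygotes and 44, 42 and 48.6 after deletion (log2 fold change 1.92 ± 0.142, adjusted p = 9.76e-10). Eif3c, the core scaffold subunit, was at 3.17, 4.01 and 3.87 in the wild type and 11, 13 and 9.71 after deletion in zygotes (log2 fold change 1.38 ± 0.189, adjusted p = 4.68e-06, or 0.89 with median-of-ratios scaling and 0.78 with quantile normalization). In 2-cell embryos it was at 84.3 and 80.2 in the wild type and 13.6, 9.55 and 23.9 after deletion (log2 fold change -2.41 ± 0.212, adjusted p = 5.57e-09, or -2.75 without library 3). Deletion embryos were thus above the wild type as zygotes and below it as 2-cell embryos for this subunit. Eif3i, of the b, g and i module, was at 47.6, 39.2 and 42.9 in the wild type and 66.7, 61.9 and 71.1 with Zp3-Cre in 3-week oocytes (log2 fold change 0.61 ± 0.112, adjusted p = 3.81e-04). The 3-month oocytes read 44.6, 39.96 and 39.8 in the wild type and 73.3, 75.8 and 71 with Gdf9-Cre (log2 fold change 0.81 ± 0.112, adjusted p = 8.53e-06). Eif3a, the largest subunit, was at 18.7, 19.4 and 17.8 in the wild type and 36.3, 29.4 and 30.4 with Gdf9-Cre in 3-month oocytes (log2 fold change 0.74 ± 0.13, adjusted p = 1.16e-04). Deletion oocytes were above all wild-type oocytes in each of these 3 comparisons.

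Deletion 2-cell library 3 was nearer to the wild type for several subunits. Eif3f was at 4.96, 2.94 and 17.9 FPKM in the deletion libraries against 31.9 and 24.1 in the wild type. Eif3l was at 5.15, 4.32 and 22.3 against 16.5 and 12.8, so that library 3 exceeded the wild type and the groups overlapped. Without library 3 the log2 fold changes were -2.57 for Eif3f and -1.44 for Eif3l, in place of -1.91 and -0.77, and Eif3l was then called.

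**Figure D3:**
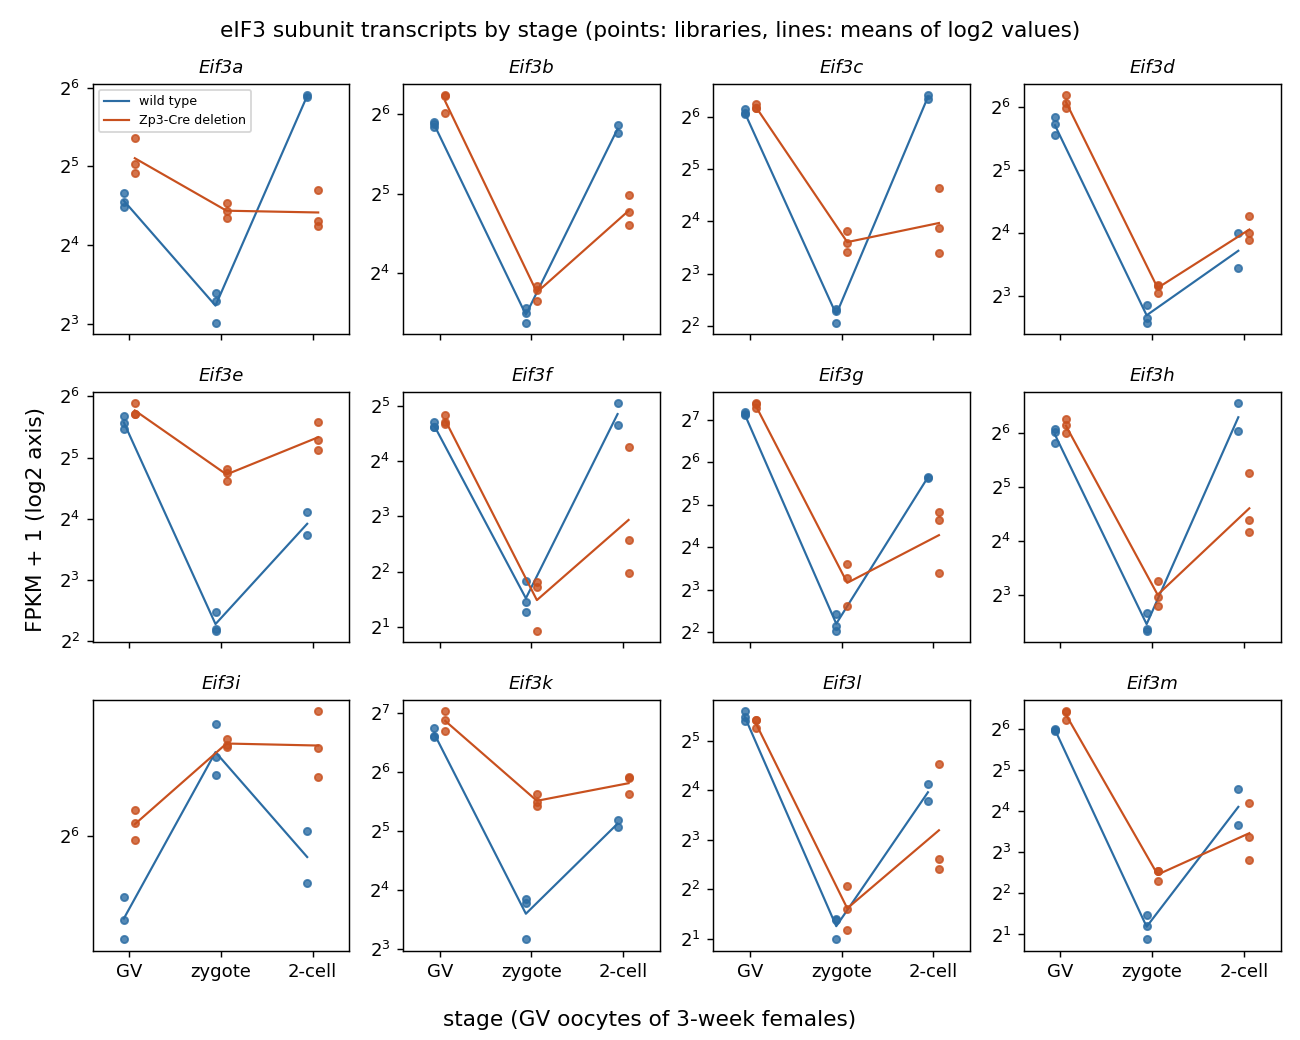
FPKM of 12 eIF3 subunits in wild-type and Zp3-Cre deletion libraries at the GV oocyte (3-week), zygote and 2-cell stages, on a logarithmic axis, with points for libraries and lines through group means. All 12 except Eif3i fall from oocyte to zygote in both genotypes. In 2-cell embryos 7 subunits were called lower after deletion, as were 29.4% of all genes.

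Eif3j1 and Eif3j2 are nearly identical, and in the table their values changed places between libraries of 1 group. In wild-type 3-week oocytes Eif3j1 read 49.7, 52.2 and 46.1 FPKM and Eif3j2 0.101, 2.75 and 0.107, while in wild-type 3-month oocytes Eif3j1 read 35, 0.209 and 0.156 and Eif3j2 18.3, 56.2 and 48.1. Deletion zygotes gave 44.8, 0.15 and 46.8 for Eif3j1 and 0.0435, 47.4 and 0.142 for Eif3j2. Zp3-Cre 3-week oocytes gave 28.2, 0.368 and 0.442 for Eif3j1 and 28.2, 64.1 and 57.9 for Eif3j2. The copy that carried the reads thus differed from library to library, and no change of a single copy is read from these values. Gdf9-Cre oocytes gave 63.8, 39.2 and 0.222 for Eif3j1 and 0.361, 23.4 and 63 for Eif3j2. Wild-type zygotes gave 0.262, 0.243 and 0.235 for Eif3j1 and 17.2, 18.7 and 17.5 for Eif3j2. Wild-type 2-cell embryos held 96.9 and 84.8 of Eif3j1 and 0.465 and 0.0158 of Eif3j2. Eif3j1 thus carried nearly all reads there and Eif3j2 nearly all in wild-type zygotes. Deletion 2-cell embryos held 38.1, 66.5 and 69.8 of Eif3j1 and 21.4, 1.78 and 0.117 of Eif3j2. Some tests of a single copy were called, among them Eif3j2 in 3-week oocytes (4.86) and, from oocyte to zygote in the wild type, Eif3j1 (-5.33) and Eif3j2 (3.5). What underlies these calls was not tested, and they are not read as changes of 1 copy.

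The sum of both copies was steady within groups. It was 49.8, 54.9 and 46.2 FPKM in wild-type 3-week oocytes and 56.4, 64.4 and 58.3 with Zp3-Cre (log2 fold change 0.24 ± 0.085, adjusted p = 0.0365), a call lost under both other scalings and without 4 of the 6 libraries in turn (wild-type 1 and 3, deletion 2 and 3; log2 fold changes 0.24, 0.19, 0.19 and 0.26). At 3 months it was 53.3, 56.4 and 48.3 in the wild type and 64.2, 62.7 and 63.2 with Gdf9-Cre (log2 fold change 0.26 ± 0.085, adjusted p = 0.0144), lost under both other scalings and, at 0.20, without wild-type library 3. Zygotes differed more, with 17.5, 19 and 17.7 in the wild type and 44.8, 47.6 and 47 after deletion (log2 fold change 1.32 ± 0.085, adjusted p = 1.36e-10). The order was the opposite in 2-cell embryos, 97.4 and 84.8 in the wild type and 59.6, 68.2 and 69.9 after deletion (log2 fold change -0.46 ± 0.095, adjusted p = 2.66e-04). No group of either embryo stage overlapped its control. For these embryo differences of the sum, the values under the other scalings and without deletion 2-cell library 3 are not given here.

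**Figure D4:**
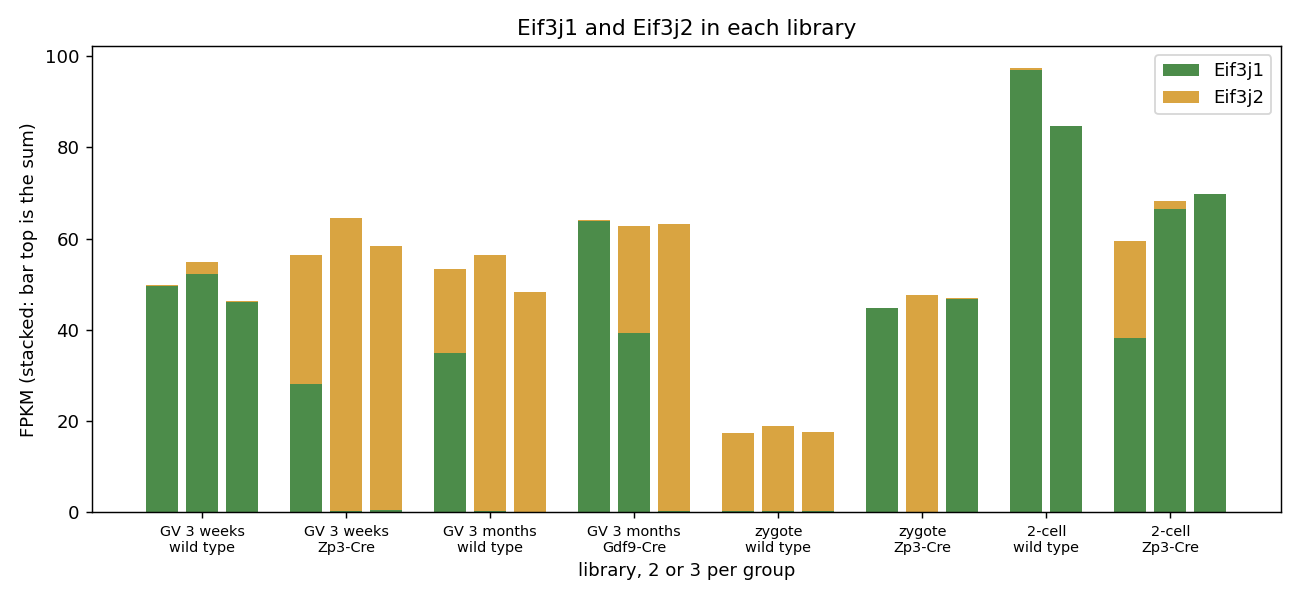
Stacked bars of Eif3j1 and Eif3j2 FPKM in each of the 23 libraries. The share of each copy switches between libraries of the same group, while the height of the stack, their sum, is similar within groups, lowest in wild-type zygotes (17.5 to 19.0) and highest in wild-type 2-cell embryos (84.8 and 97.4).

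The cap-binding and scaffold genes held Eif4g1 and Eif4g2, both lower in every deletion comparison. Eif4g2 encodes DAP5, a scaffold without the cap-binding protein's docking site. It was at 49.7, 50.6 and 48.7 FPKM in the wild-type and 28.5, 29 and 32.7 in Zp3-Cre 3-week oocytes (log2 fold change -0.71 ± 0.0954, adjusted p = 1.80e-05). At 3 months it was at 53.2, 55.8 and 49.5 in the wild type and 32.3, 32.7 and 29 with Gdf9-Cre (log2 fold change -0.74 ± 0.0954, adjusted p = 4.41e-06). Zygotes had 101, 105 and 104 in the wild type and 51.1, 44.9 and 53.9 after deletion (log2 fold change -1.04 ± 0.0954, adjusted p = 2.28e-08, or -1.64 with median-of-ratios scaling). In 2-cell embryos it was at 131 and 133 in the wild type and 57.7, 64.5 and 78.4 after deletion (log2 fold change -0.98 ± 0.107, adjusted p = 1.09e-07, or -1.1 without library 3). Deletion libraries were below all wild-type libraries in each comparison. Eif4g1, the main eIF4G scaffold, was at 66.9, 64.7 and 65.4 in the wild type and 55.9, 53.8 and 50.1 with Zp3-Cre in 3-week oocytes (log2 fold change -0.3 ± 0.102, adjusted p = 0.033). That call was lost when any library but deletion library 1 was left out, at -0.26 to -0.31. Its values at 3 months were 56.5, 59.8 and 53.3 in the wild type and 43.1, 43.8 and 47.9 with Gdf9-Cre (log2 fold change -0.32 ± 0.102, adjusted p = 0.0127, or -0.56 with median-of-ratios scaling and -0.54 with quantile normalization), lost at -0.28 without wild-type library 2.

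In zygotes Eif4g1 was at 68, 64.3 and 73.2 in the wild type and 47.9, 44.8 and 49.2 after deletion (log2 fold change -0.52 ± 0.102, adjusted p = 2.46e-04, or -1.13 with median-of-ratios scaling). The gap widened in 2-cell embryos, at 132 and 168 against 53.3, 45.2 and 62.2 (log2 fold change -1.47 ± 0.114, adjusted p = 9.35e-10, or -1.58 without library 3). Eif4g3, the third scaffold, differed from both. It was at 38.8, 38.5 and 39.7 in the wild type and 34.6, 32.7 and 30.2 with Zp3-Cre in 3-week oocytes (log2 fold change -0.26 ± 0.106, adjusted p = 0.0783) and at 35.3, 39.9 and 39 in the wild type and 22.3, 23.9 and 27 with Gdf9-Cre at 3 months (log2 fold change -0.62 ± 0.106, adjusted p = 8.81e-05). In zygotes it was higher after deletion, 20.1, 17.1 and 20.2 against 9.54, 11.5 and 10.1 (log2 fold change 0.82 ± 0.106, adjusted p = 2.26e-06, not called at 0.26 with median-of-ratios scaling, and 0.29 with quantile normalization). It was higher in 2-cell embryos too, 19.3, 15.4 and 17.7 against 8.96 and 11.3 (log2 fold change 0.73 ± 0.119, adjusted p = 2.08e-05, or 0.72 without library 3, or 0.47 with median-of-ratios scaling). In deletion 2-cell embryos scaffold genes thus differed in opposite directions under all 3 scalings, with no overlap between groups.

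Eif4e, the cap-binding protein itself, was called higher in all 4 deletion comparisons, but another scaling turned each embryo difference. It was at 74.3, 71.1 and 75.5 FPKM in the wild-type and 98.6, 107 and 111 in Zp3-Cre 3-week oocytes (log2 fold change 0.51 ± 0.0912, adjusted p = 3.31e-04). The 3-month oocytes had 73.5, 78.2 and 73.1 in the wild type and 111, 115 and 103 with Gdf9-Cre (log2 fold change 0.54 ± 0.0912, adjusted p = 7.22e-05, or 0.3 with median-of-ratios scaling and 0.36 with quantile normalization). Zygotes had 56.1, 57.4 and 51.2 in the wild type and 81.7, 78.1 and 85.5 after deletion (log2 fold change 0.57 ± 0.0912, adjusted p = 3.15e-05), a difference that turned to -0.032 under median-of-ratios scaling and was 0.35 under quantile normalization. The 2-cell embryos had 105 and 92.3 in the wild type and 108, 144 and 114 after deletion (log2 fold change 0.29 ± 0.102, adjusted p = 0.0173, or 0.33 without library 3). This last call turned to -0.058 under quantile normalization and was lost under median-of-ratios scaling (0.013), with array weights, in a fit to these groups alone, and without wild-type library 2 (0.20) or deletion library 2 (0.17).

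Eif4e2, a cap-binding repressor, was at 16, 14.1 and 15.1 in the wild type and 21.1, 20.3 and 17.8 with Zp3-Cre in 3-week oocytes (log2 fold change 0.37 ± 0.136, adjusted p = 0.0484, not called at 0.26 with median-of-ratios scaling and 0.33 with quantile normalization). That call was also lost without any library but deletion library 3 (0.32 to 0.41), with a pseudocount of 0.1, without the filter on low values and without the trend. The 3-month values were 12.3, 11.8 and 13.4 in the wild type and 16.4, 14.8 and 15.1 with Gdf9-Cre (log2 fold change 0.28 ± 0.136, adjusted p = 0.0897). In zygotes it was at 2.26, 1.58 and 2.35 in the wild type and 3.62, 4.1 and 2.94 after deletion (log2 fold change 0.57 ± 0.136, adjusted p = 0.00156, not called at 0.14 with median-of-ratios scaling and 0.067 with quantile normalization). Wild-type 2-cell embryos held 33.5 and 28.1 and deletion embryos 12.1, 10.6 and 8.08 (log2 fold change -1.51 ± 0.152, adjusted p = 3.71e-08, or -1.36 without library 3). Eif4e3, an atypical member of the family, was at 131, 143 and 128 in the wild type and 121, 127 and 134 with Zp3-Cre in 3-week oocytes, which overlap (log2 fold change -0.076 ± 0.0699, adjusted p = 0.46). In 3-month oocytes it was at 174, 161 and 165 in the wild type and 113, 119 and 116 with Gdf9-Cre, all deletion libraries being lower (log2 fold change -0.52 ± 0.0699, adjusted p = 6.83e-06). Deletion zygotes were also lower, 182, 173 and 169.8 against 261, 279 and 259.8 (log2 fold change -0.61 ± 0.0699, adjusted p = 5.12e-07, or -1.21 with median-of-ratios scaling). Deletion 2-cell embryos were higher, 113, 99.9 and 97.8 against 75.7 and 80.4 (log2 fold change 0.4 ± 0.0781, adjusted p = 1.42e-04, or 0.44 without library 3, not called at 0.13 with median-of-ratios scaling and 0.081 with quantile normalization).

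The eIF4E-binding proteins sequester Eif4e unless mTORC1 phosphorylates them. Eif4ebp1 was at 2.93, 2.56 and 2.06 FPKM in the wild-type and 10.03, 3.4 and 10.2 in Zp3-Cre 3-week oocytes (log2 fold change 1.22 ± 0.406, adjusted p = 0.0287, not called at 1.05 with quantile normalization), deletion library 2 being much nearer to the controls than the other 2. The call was also lost without the filter on low values and without wild-type library 2 or 3 (1.24 and 1.13) or deletion library 1 or 3 (1.01 and 1.00). In 3-month oocytes it was at 1.31, 2.52 and 1.38 in the wild type and 12.1, 16.3 and 11.6 with Gdf9-Cre, the largest rise of any called member there (log2 fold change 2.4 ± 0.406, adjusted p = 7.83e-05). In zygotes it was at 1.89, 4.01 and 2.14 in the wild type and 4.4, 7.25 and 8.12 after deletion (log2 fold change 1.05 ± 0.406, adjusted p = 0.0397, not called at 0.6 with median-of-ratios scaling and 0.52 with quantile normalization). The zygote call was also lost without the filter on low values, wild-type library 1 or 3 (0.90 and 0.96) or deletion library 2 or 3 (0.98 and 0.90). The 2-cell values of 17 and 11.6 in the wild type and 6.55, 7.25 and 26 after deletion overlapped, because library 3 exceeded both controls (log2 fold change -0.34 ± 0.454, adjusted p = 0.525, or -0.93 without it, a difference then called).

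Eif4ebp2 was at 10.5, 12.2 and 10.2 in the wild type and 18.1, 15.3 and 14.6 with Zp3-Cre in 3-week oocytes (log2 fold change 0.5 ± 0.138, adjusted p = 0.00953), with 0.42 and no call without deletion library 1. At 3 months it was at 10.04, 8.77 and 9.81 in the wild type and 14.4, 16.6 and 17.1 with Gdf9-Cre (log2 fold change 0.69 ± 0.138, adjusted p = 4.31e-04, or 0.45 with median-of-ratios scaling). The zygote values were 17.5, 13.7 and 17.9 in the wild type and 21.1, 20.2 and 25.7 after deletion (log2 fold change 0.43 ± 0.138, adjusted p = 0.0151). This zygote difference turned to -0.15 under median-of-ratios scaling and to -0.021 under quantile normalization, and was not called without wild-type library 2 (0.31) or deletion library 3 (0.33). The 2-cell groups overlapped, at 19.7 and 27.8 in the wild type and 26.3, 20.6 and 24.6 after deletion (log2 fold change 0.018 ± 0.155, adjusted p = 0.926). Eif4ebp3 passed no deletion test. It was at 2.22, 1.12 and 1.53 in the wild type and 2.96, 1.4 and 0.669 with Zp3-Cre at 3 weeks, and at 1.42, 1.36 and 1.38 in the wild type and 2.33, 1.4 and 0.885 with Gdf9-Cre at 3 months. It was below 1 FPKM in all embryos, at 0.194, 0.183 and 0.351 in the wild type and 0.226, 0.229 and 0 after deletion in zygotes and 0.998 and 0.288 in the wild type and 0.359, 0.192 and 0.881 after deletion in 2-cell embryos.

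Of the helicase genes, Eif4a2 was lower in every deletion comparison. The protein is an RNA helicase of the cap complex and its window above holds 36 CG. It was at 42.5, 48.2 and 43.8 FPKM in the wild-type and 19.3, 23.1 and 27.1 in Zp3-Cre 3-week oocytes (log2 fold change -0.93 ± 0.154, adjusted p = 1.54e-04). The 3-month oocytes had 55, 52.3 and 47.4 in the wild type and 22.7, 24.4 and 20.1 with Gdf9-Cre (log2 fold change -1.17 ± 0.154, adjusted p = 5.20e-06). In zygotes it was at 77.6, 89 and 82.4 in the wild type and 33.3, 27.1 and 34.7 after deletion (log2 fold change -1.37 ± 0.154, adjusted p = 3.68e-07). The deletion libraries lay below all controls in these 3 comparisons. In 2-cell embryos it was at 31.9 and 30.8 in the wild type and 17.5, 22.4 and 31.1 after deletion (log2 fold change -0.43 ± 0.172, adjusted p = 0.0347, or -0.64 without library 3, or -0.7 with median-of-ratios scaling), and library 3 fell between both controls. Eif4a1, the helicase paralogue that was higher in level in all groups, was at 423, 396 and 391 in wild-type and 282, 302 and 299 in deletion zygotes (log2 fold change -0.45 ± 0.0852, adjusted p = 1.85e-04, or -1.06 with median-of-ratios scaling). In 2-cell embryos it differed by 0.43 ± 0.0952 (adjusted p = 5.33e-04, or 0.49 without library 3), and by 0.15 with median-of-ratios scaling and -0.094 with quantile normalization, neither called.

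Eif4h and Eif4b stimulate the helicase. Eif4h was at 2.26, 3.69 and 3.79 FPKM in wild-type zygotes and 16.9, 23.5 and 11 in deletion zygotes (log2 fold change 2.06 ± 0.254, adjusted p = 1.18e-06), with no overlap. Its 2-cell values were 35.4 and 39.2 in the wild type and 18.9, 16.2 and 39.4 after deletion (log2 fold change -0.67 ± 0.283, adjusted p = 0.0431, or -1.05 without library 3), and library 3 exceeded the wild type. Eif4b was at 132, 139 and 139 in the wild type and 115, 115 and 118 with Zp3-Cre in 3-week oocytes (log2 fold change -0.23 ± 0.0782, adjusted p = 0.0314). That call was lost without the trend and without any library but wild-type library 1, at -0.22 to -0.24. Eif5a, needed for translation through difficult peptide bonds, was at 221, 213 and 231 in wild-type and 408, 400.3 and 374 in Gdf9-Cre 3-month oocytes (log2 fold change 0.83 ± 0.106, adjusted p = 3.70e-06), and was higher in 3-week Zp3-Cre oocytes as well (0.52, adjusted p = 0.00112).

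**Figure D5:**
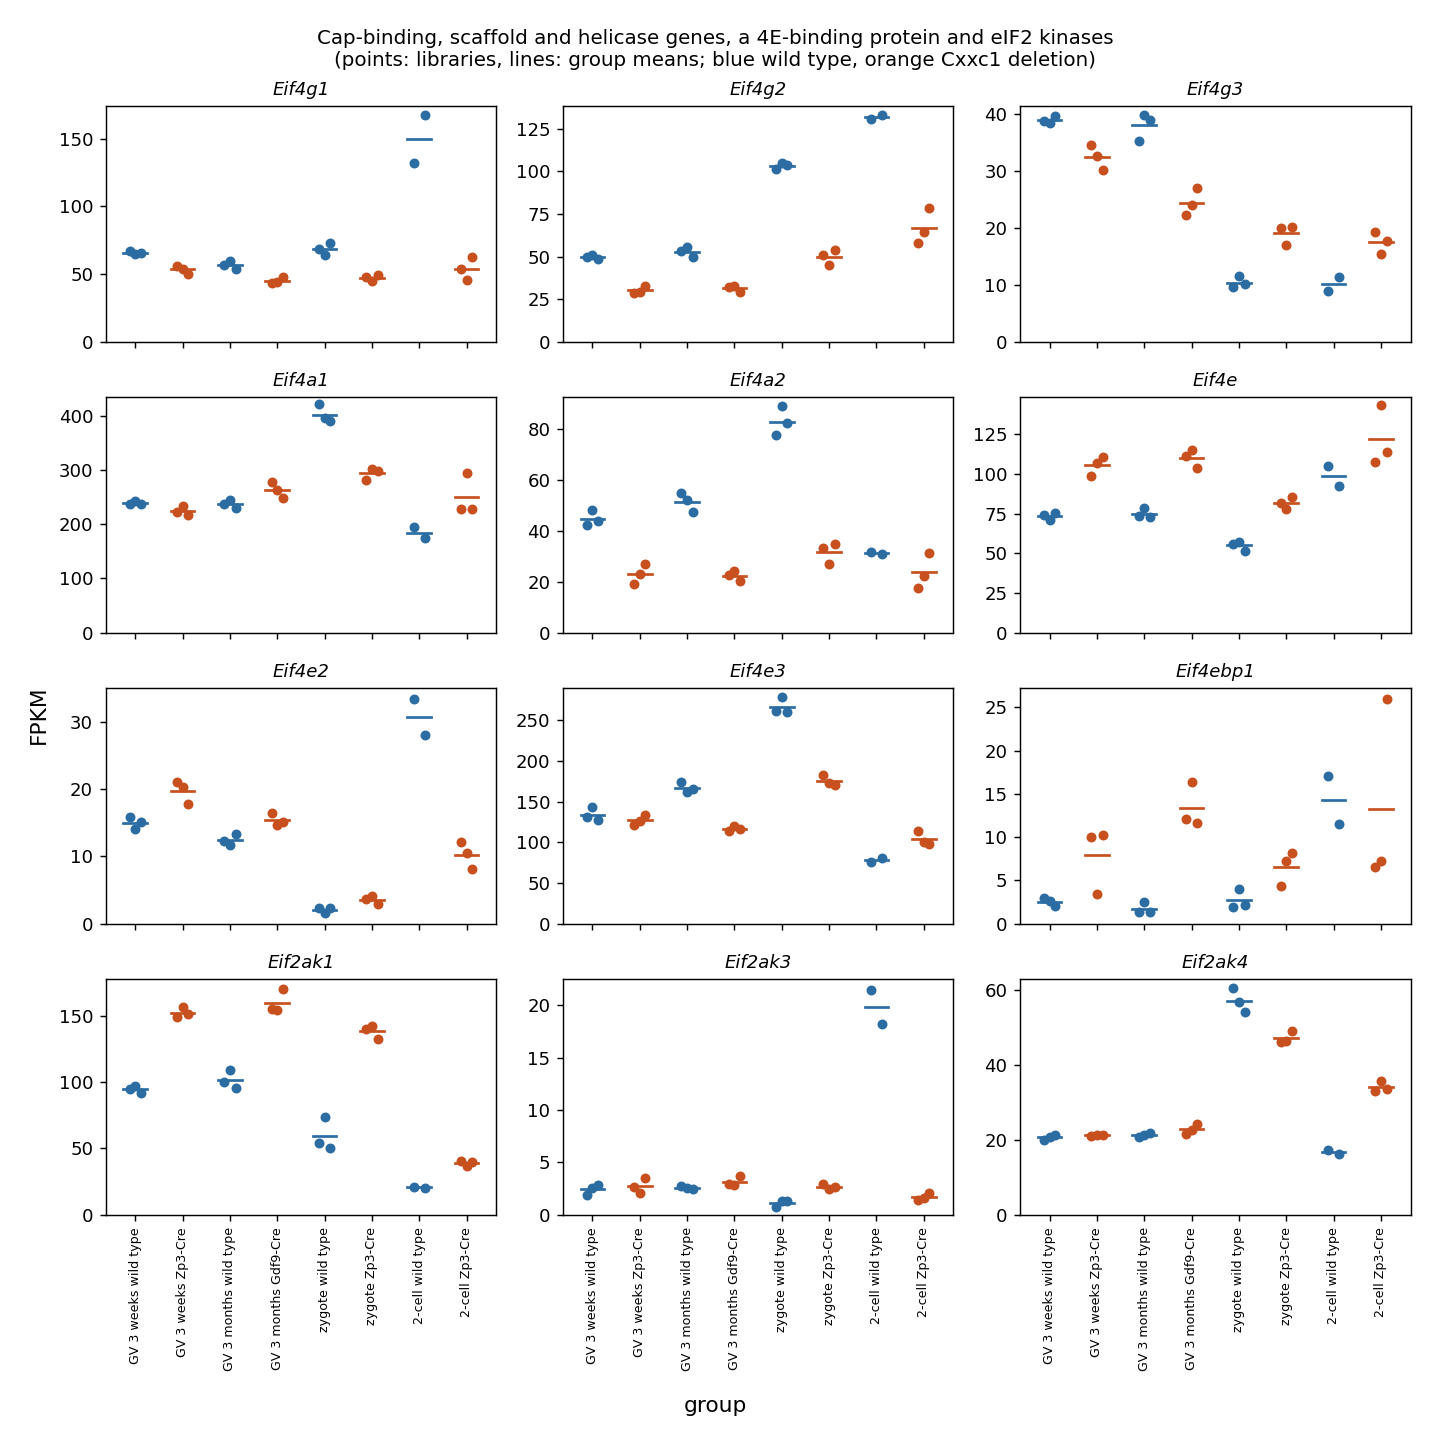
FPKM of 12 eIF4, 4E-binding protein and eIF2 kinase genes in the 8 groups, with a point for each library. Eif4g2 and Eif4a2 are lower and Eif2ak1 higher in each deletion group than in its control, with 1 deletion 2-cell library of Eif4a2 between its controls, while Eif2ak3 is near 20 FPKM in wild-type 2-cell embryos only.

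The stage changes in the wild type give the setting of these differences. From 3-week oocytes to zygotes 13 of the 51 members were higher and 33 lower (25.5% and 64.7%, against 19.4% and 50.7% of all genes, 70.1% in both directions), with a median of -1.60 against -0.47 for all genes. From zygotes to 2-cell embryos 38 were higher and 10 lower (74.5% and 19.6%, against 44.5% and 24% of all genes, 68.5% in both directions), with a median of 1.30 against 0.31. Both comparisons use the same zygote libraries. With the other scalings the all-gene median moved by 0.42 and 0.55 in the first and by -0.22 and -0.53 in the second, leaving 16 or 17 members higher and 29 lower in the first and 31 or 33 higher and 12 or 11 lower in the second. Among all called genes 48% and 54% were then higher in the first, against 35.6% and 37% of the called members. In the second they were 54.2% and 43.4%, against 72.1% and 75%. Changes of 8 members turned sign. Among the falls into zygotes these were Eif2s1, Eif2ak1 and Eif4e under median-of-ratios scaling (to 0.21, 0.22 and a called 0.48), and Eif2s1 and Eif2ak3 under quantile normalization (to a called 0.38 and to 0.19). Among the rises to 2 cells they were Eif1b, Eif4g2 and Eif4b under median-of-ratios scaling (to -0.19, -0.086 and -0.0096) and Eif2a under quantile normalization (to -0.088).

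Besides the Eif3j copies, the largest falls into wild-type zygotes were in Eif3g and Eif2b4. Eif3g, a subunit with an RNA-binding domain, went from 143, 139.5 and 137 FPKM to 3.4, 4.41 and 3.08 (log2 fold change -4.94 ± 0.26, adjusted p = 1.10e-12). Eif2b4 went from 98.5, 95.1 and 93.8 to 2.74, 2.15 and 2.31 (log2 fold change -4.83 ± 0.181, adjusted p = 8.34e-15). Both groups were far apart. Rises in zygotes were smaller, as for Eif2ak4 from 19.9, 20.7 and 21.3 to 60.5, 56.7 and 54 (log2 fold change 1.42 ± 0.0672, adjusted p = 2.25e-13, or 2.31 with median-of-ratios scaling). Eif3i was the only eIF3 subunit apart from the j copies that rose, from 47.6, 39.2 and 42.9 to 90.2, 105 and 83.1 (log2 fold change 1.08 ± 0.112, adjusted p = 2.95e-08, or 1.98 with median-of-ratios scaling), where the other 11 fell. To the 2-cell stage Eif3c rose to 84.3 and 80.2 (log2 fold change 4.16 ± 0.212, adjusted p = 1.01e-12) and Eif2b4 to 57.5 and 49.2 (log2 fold change 4.0 ± 0.203, adjusted p = 9.25e-13), while Eif2b1 fell from 222, 226 and 202 to 41.2 and 29.4 (log2 fold change -2.6 ± 0.143, adjusted p = 2.92e-12) and Eif4e3 from 261, 279 and 259.8 to 75.7 and 80.4 (log2 fold change -1.76 ± 0.0781, adjusted p = 1.46e-13). Without the Eif3j copies, 11 of the 12 eIF3 subunits rose and Eif3i fell at this step. Of all genes 44.5% rose and 24% fell at it, and 50.7% fell from oocyte to zygote.

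In the deletion series, 11 members were higher and 30 lower from 3-week oocytes to zygotes (21.6% and 58.8%, against 21.9% and 43% of all genes, 64.9% in both directions). From zygotes to 2-cell embryos 25 were higher and 9 lower (49% and 17.6%, against 32.7% and 17.3%), and 26 and 8 without deletion 2-cell library 3. The other scalings gave 16 and 26, and 15 and 26, in the first of these steps. Among all called genes 48.2% and 56.3% were then higher in it, against 38.1% and 36.6% of the called members. The fall into deletion zygotes turned sign for Eif2s2 and Eif4e under median-of-ratios scaling (0.06 and 0.049) and for Eif2s1 under quantile normalization (0.081). Of the 12 eIF3 subunits 8 rose and none fell at this last step, or 9 without that library. Eif3c was not among them, at 11, 13 and 9.71 FPKM in deletion zygotes and 13.6, 9.55 and 23.9 in deletion 2-cell embryos (log2 fold change 0.36 ± 0.189, adjusted p = 0.116). Without library 3 its log2 fold change was 0.029. Eif2ak3 fell from 2.9, 2.47 and 2.62 to 1.35, 1.58 and 2.11 (log2 fold change -0.46 ± 0.162, adjusted p = 0.0246, or -0.86 with quantile normalization, or -0.57 without library 3).

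Whether a deletion effect differed between stages was tested as a difference of differences, which shares its libraries with the comparisons above. Between 3-week oocytes and zygotes the effect on 15 members was higher and on 5 lower in zygotes (29.4% and 9.8%, against 22.4% and 7.01% of all genes), with 9 and 19 under median-of-ratios scaling and 10 and 10 under quantile normalization. Among all called genes 39.5% and 49.1% were higher under these scalings, against 32.1% and 50% of the called members. Between zygotes and 2-cell embryos the effect was higher for 9 and lower for 25 in 2-cell embryos (17.6% and 49%, against 21.5% and 32.4%), and for 10 and 27 without deletion 2-cell library 3. Of the 12 eIF3 subunits 1, Eif3i, was among the 9, and 9 were among the 25, or 10 of the 27 without the library. Eif2ak3 had a deletion effect of 0.82 in zygotes and -2.96 in 2-cell embryos, a difference of -3.78 ± 0.244 (adjusted p = 2.07e-10). For Eif3c the effects were 1.38 and -2.41, a difference of -3.79 ± 0.284 (adjusted p = 1.39e-09). Eif4g2 had effects of -1.04 and -0.98, and the difference was not called (0.054 ± 0.143, adjusted p = 0.779).

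Whether the deletion effect differed between both pairs of GV groups was tested in the same way, with the limit that age and Cre line differ together. The difference was called for 1 of 51 members (1.96%, against 4.89% of all genes, 3.2% higher and 1.68% lower), and for 3 without Gdf9-Cre library 3. The 1 member was Eif4e3, with effects of -0.076 in 3-week Zp3-Cre and -0.52 in 3-month Gdf9-Cre oocytes, a difference of -0.44 ± 0.0988 (adjusted p = 0.0161). Between wild-type oocytes of 3 months and 3 weeks Eif4e3 alone of the 51 was called, where 3.95% of all genes were, 2.25% higher and 1.7% lower. It was at 174, 161 and 165 FPKM at 3 months and 131, 143 and 128 at 3 weeks (log2 fold change 0.31 ± 0.0699, adjusted p = 0.0127), all 3-month libraries being higher. No member was called with age under median-of-ratios scaling or without 3-week library 1 or 3 or 3-month library 1. Array weights or a fit to these groups alone called 15 and 14. The share of all genes called in those fits is not given here, so these counts are not read as an effect particular to the members.

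Other genes of translation, in 4 lists that hold no member, moved both ways as well. Beside the counts of these lists, 18.3%, 34.2%, 35.3% and 37.1% of all genes were higher in the 4 comparisons. Of all genes 11.3%, 15.2%, 11.4% and 29.4% were lower. Of 20 genes of cap, poly(A) and mRNA recruitment, 2 were higher and 3 lower in 3-week oocytes, 5 and 6 in 3-month oocytes, 12 and 3 in zygotes, and 12 and 7 in 2-cell embryos, the same number without library 3. Paip2, which displaces the poly(A)-binding protein, was at 3.77, 3.97 and 4.64 FPKM in the wild-type and 90.2, 118 and 76.1 in deletion zygotes (log2 fold change 4.2 ± 0.11, adjusted p = 4.83e-16). Pdcd4, which binds the eIF4A helicases and blocks them, was higher by 1.79 ± 0.142 in zygotes (adjusted p = 2.92e-09, or 1.16 with quantile normalization) and by 2.6 ± 0.159 in 2-cell embryos (adjusted p = 3.47e-11, or 2.74 without library 3). Pabpc1, the poly(A)-binding protein of somatic cells, was at 129 and 112 in wild-type and 15.1, 15.3 and 62 in deletion 2-cell embryos (log2 fold change -2.24 ± 0.362, adjusted p = 1.82e-05, or -2.9 without library 3), library 3 lying between the other deletion libraries and the controls. In 3-month Gdf9-Cre oocytes, whose granulosa marker sum was raised, it was higher, at 34.8, 34.4 and 33.1 against 14.3, 15.2 and 12.4 (log2 fold change 1.23 ± 0.324, adjusted p = 0.00386).

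Of 15 genes of the ternary complex, recycling and the integrated stress response, which the eIF2 kinases trigger, 4 were higher and 2 lower in 3-week oocytes. The counts were 6 and 2 in 3-month oocytes, 6 and 1 in zygotes, and 1 and 9 in 2-cell embryos (1 and 10 without library 3), where 37.1% and 29.4% of all genes were called. Trib3, a target of that response, was higher in both kinds of deletion oocytes (1.07, and 1.36, or 0.88 with quantile normalization) and lower in deletion 2-cell embryos, at 1.02, 0.395 and 0.815 FPKM against 22.9 and 24.3 (log2 fold change -3.84 ± 0.192, adjusted p = 2.38e-12, or -3.87 without library 3). Ppp1r15a, the stress-induced subunit of the eIF2 phosphatase, was at 171 and 159.9 in the wild type and 26.7, 28.3 and 20.6 after deletion there (log2 fold change -2.68 ± 0.126, adjusted p = 9.29e-13, or -2.55 without library 3). Its constitutive counterpart Ppp1r15b was also lower (-2.66 ± 0.283, adjusted p = 8.21e-08, or -3.08 without library 3). Cdc123, which assembles eIF2 from its subunits, was at 1.3, 1.22 and 1.53 in the wild type and 9.81, 11.4 and 6.76 after deletion in zygotes (log2 fold change 2.11 ± 0.152, adjusted p = 6.81e-10).

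Elongation and termination genes, 14 in all, counted 2 higher and 3 lower, 4 and 4, 4 and 3, and 4 and 4 in the order of the 4 comparisons, the last becoming 5 and 5 without library 3. The release factor Etf1 was higher in deletion zygotes (2.3 ± 0.109, adjusted p = 1.43e-12), and Dohh, the enzyme that completes the hypusine of eIF5A, was lower in deletion 2-cell embryos (-2.56 ± 0.359, adjusted p = 3.19e-06, or -3.07 without library 3). Of 10 genes of mTORC1 signalling 1 was higher and 1 lower, 2 and 1, 4 and 2, and 1 and 5 (1 and 6 without library 3). Rheb, the GTPase that activates mTORC1, was higher in all 4 comparisons. It was at 35.8, 31.6 and 39.2 in the wild type and 67.9, 76 and 71.4 FPKM with Zp3-Cre in 3-week oocytes (log2 fold change 1.0 ± 0.11, adjusted p = 1.97e-06) and at 12.9 and 17.1 in the wild type and 63.7, 81.2 and 79.9 after deletion in 2-cell embryos (log2 fold change 2.25 ± 0.123, adjusted p = 7.55e-12, or 2.2 without library 3). Deletion and wild-type libraries did not overlap in either. In 3-month oocytes the lists, in the order above, counted 3 higher and 10 lower, 6 and 3, 1 and 5, and 1 and 3 under median-of-ratios scaling, and 4 and 9, 6 and 4, 4 and 4, and 2 and 2 with quantile normalization. In zygotes they counted 7 higher and 5 lower, 2 and 3, 4 and 4, and 2 and 3 under median-of-ratios scaling, and 12 and 4, 2 and 3, 4 and 4, and 2 and 4 under quantile normalization. In 2-cell embryos they counted 8 higher and 7 lower, 1 and 9, 3 and 4, and 1 and 7 under median-of-ratios scaling. Quantile normalization gave 9 and 7, 1 and 8, 4 and 4, and 2 and 6 there. In 3-week oocytes they counted 2 and 3, 3 and 2, 1 and 4, and 1 and 1 under median-of-ratios scaling. Quantile normalization gave 2 and 3, 3 and 2, 2 and 4, and 1 and 1. Over the 4 comparisons, without these scalings, 29.6%, 49.5%, 46.7% and 66.5% of all genes were called in either direction.

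Marker lists differed along with the comparisons. In deletion zygotes 10 of the 12 oocyte markers were higher and 1 lower, against 35.3% and 11.4% of all genes. Their sums were 7546 to 8645 FPKM against 5107 to 5929 in the wild type. In deletion 2-cell embryos 10 of the 11 two-cell stage markers in the table were lower, against 29.4% of all genes. Their sums were 90.6 to 94.3 FPKM against 343 to 438. Marker counts under the other scalings are not given here. Summed oocyte markers were also higher there, at 3465 to 3773 FPKM against 999 to 1179. Summed two-cell stage markers were at 51.2 to 55.0 FPKM in deletion and 14.8 to 22.3 in wild-type zygotes. In oocytes that sum was 169 to 200.5 with Zp3-Cre and 93.3 to 98.3 in its controls, and 233 to 287 with Gdf9-Cre and 91.8 to 105 in its controls, while oocyte markers summed to 9518 to 10414 and 10050 to 10400.1 against 12539.6 to 12756 and 11841 to 11956. The part of these shifts in the results on initiation factors was not tested.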

How the data were processed

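RNA had been sequenced from mouse oocytes and embryos, 23 libraries in 8 groups taken from the labels. The authors deposited 1 table of FPKM per gene. Per the submitters' processing notes, tools included CASAVA 1.4, TopHat2 2.0.12 and Cufflinks 2.2.1, with builds mm10 and mm9 named. The sources used here do not say which of them applied to these values, nor the strand or annotation.

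FPKM carries no read counts, so depth was judged only relatively, and few libraries per group limit the precision. Values were analysed as log2(FPKM + 1), which understates changes of low genes. Genes at 1 FPKM or more in at least 2 libraries (13776) entered a limma 3.58.1 fit (R 4.3.3) of 8 group means with a mean-variance trend over all 23 libraries, and p-values were Benjamini-Hochberg adjusted over all genes, two-sided. Eif3j1 and Eif3j2 were also fitted as 1 summed row. The fit was tested on simulated data.

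Members, roles, gene lists and named members (largest called changes per comparison, plus paralogue and antagonist sets) were chosen with earlier results of these data known. The 3 promoters printed were picked by their results. Alternatives were other scalings, pseudocounts and filters, array weights, no trend, groups fitted apart, a replicate block and leaving out each library. The same replicate numbers do not mark shared animals in the labels.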

Additional observations from a re-analysis of the deposited data

Results flagged for a closer look

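A set of 9 differences of deletion effects were singled out because the test of the difference itself was called, these being the members with the largest differences in each test (on log2(FPKM + 1), limma, adjusted p over all genes). Between 3-week oocytes and zygotes the effect was higher in zygotes for Eif3e by 2.25 ± 0.166 (SE, adjusted p = 3.72e-09) and for Eif2s2 by 1.88 ± 0.14 (adjusted p = 4.12e-09). For Eif3j1 it was 7.15 ± 2.19 (adjusted p = 0.0179) and for Eif3j2 -7.14 ± 1.9 (adjusted p = 0.0071). The values of these copies switch between libraries of a group, and the difference for their sum was 1.07 ± 0.12 (adjusted p = 9.83e-07). The Eif3j1 difference was no longer called without deletion zygote library 1, where it was 6.28. Between zygotes and 2-cell embryos the effect was lower in 2-cell embryos for Eif3c by -3.79 ± 0.284 (adjusted p = 1.39e-09; -4.13 without deletion 2-cell library 3), for Eif2ak3 by -3.78 ± 0.244 (adjusted p = 2.07e-10; -3.89 without it) and for Eif2b4 by -3.36 ± 0.272 (adjusted p = 3.79e-09; -3.49 without it). For Eif1a, whose close paralogue Eif1ax may share its reads, it was -2.74 ± 0.547 (adjusted p = 2.73e-04; -3.39 without it). Between both GV pairs the difference for Eif4e3 was -0.44 ± 0.0988 (adjusted p = 0.0161).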

How the results depend on the processing

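The number of called members stayed within 1.5 times that reported in all 12 comparisons with a pseudocount of 0.1, no filter on low values, a minimum of 5 FPKM, no mean-variance trend and quantile normalization. Same-numbered libraries did not deviate together (11 pairs, correlations -0.069 to 0.058), and a replicate block, with 17 members called in 3-week oocytes, moved no count by more than that. Fitting the groups of a comparison alone gave 28 members in 3-week oocytes in place of 18, 14 for age in place of 1, 22 from zygotes to 2-cell embryos after deletion in place of 34, and 10 for the difference between GV pairs in place of 1. Array weights gave 15 for age and 12 for that difference, and median-of-ratios scaling 19 in 3-month oocytes in place of 29 and 0 for age. With groups fitted alone or array weights the share of all genes called is not given here. Those counts are therefore not read as results about the members. Leaving out 1 library at a time gave 10 to 15 in 3-week oocytes, 0 to 1 for age and 1 to 3 for the difference between GV pairs.

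The Eif3j sum in 3-week oocytes (0.24) was not called under median-of-ratios scaling (0.13), quantile normalization (0.18) or no trend (0.24), and ran from 0.19 to 0.31 over libraries left out. In 3-month oocytes it went from 0.26 to 0.022 and 0.090 under these scalings, and from 0.20 to 0.31 over libraries left out. Its fall from oocyte to zygote after deletion (-0.35) turned to 0.053 under median-of-ratios scaling and was not called at -0.054 under quantile normalization. Named members turned sign in 8 cases. Under median-of-ratios scaling these were Eif4e (-0.032) and Eif4ebp2 (-0.15) in deletion zygotes, Eif4e (0.48) and Eif2ak1 (0.22) from oocyte to zygote and Eif4g2 (-0.086) from zygote to 2-cell embryo. Under quantile normalization they were Eif4ebp2 in zygotes (-0.021), Eif4e in 2-cell embryos (-0.058) and Eif2ak3 from oocyte to zygote (0.19). The cause was not tested. With absolute depth unknown, no counting error could be attached, and low members such as Eif1a and Eif4ebp3 are the least certain.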
